A study of Homo sapiens with 47 samples.

Results

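The spalt-like (SALL) genes of the human genome, SALL1, SALL2, SALL3 and SALL4, were followed through the differentiation of human embryonic stem cells (hESCs) into neuromesodermal progenitor (NMP)-like cells, pre-neural progenitors (PNPs) and neural crest (NC). The members were taken by Ensembl gene identifier matched to the gene symbol, which gave 4 of the 58051 genes listed for every library. The series holds 47 libraries of polyadenylated RNA from WA09, a single established hESC line. Of these, 35 were whole cultures at 12 time points and 12 were fractions of the passage 5 (P5) and P8 cultures.

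Undifferentiated cells (t0) were kept in mTESR1 on Matrigel. NMP-like cells were collected after 36 h in N2B27 medium without vitamin A that contained CHIR-99021, rhFGF2, AGN193109 and Y-27632, which respectively activate WNT signalling, supply FGF, block retinoic acid receptors and inhibit ROCK. Every later group stayed in the same medium with the same agents: the cells were dissociated at 36 h, replated, passaged each time the dishes were nearly full and sampled at P1 to P10. The mesenchymal (MES) and epithelial (EPI) fractions of P5 and P8 were separated by TrypLE, which detaches the cell types at different speeds, so that each fraction is enriched rather than pure. Each group has 3 libraries, numbered by the 3 differentiations that were run from t0 to P10, and P9 has 2. In bulk RNA, fewer cells that express a gene and less RNA per cell cannot be told apart, and this holds for each value below.

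SALL proteins are nuclear zinc finger factors that mostly act as repressors. A short motif at their N terminus recruits the nucleosome remodelling and deacetylase (NuRD) complex, and pairs of C2H2 zinc fingers further along bind AT-rich DNA. SALL4 is best known from pluripotent cells and the early embryo and is degraded through cereblon when thalidomide is present; SALL1 acts in kidney, limb and neural development and is mutated in Townes-Brocks syndrome; SALL2 is the most divergent member, with roles in the eye and in growth control; SALL3 acts in neural and limb development.

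The longest run of bases found in all 4 members was 26 bases long and fell in exon 2, in the coding sequence of a C2H2 zinc finger. It is shown 5′ to 3′, from GENCODE release 29 transcripts on GRCh38, because all 4 members hold it; every base is in capitals for that reason.
shared run: TGCCCCATCTGCCAGAAGAAGTTCAC
It stands at chr16:51139895-51139920 in SALL1, chr14:21523626-21523651 in SALL2, chr18:78994212-78994237 in SALL3 and chr20:51790576-51790601 in SALL4. The longest run shared by any pair of members was 32 bases, for SALL2 and SALL3. No stretch of 75 bases, the read length, was shared between members, so a read that matched exactly could be placed on only 1 of them. SALL2 shared 330 of its 5590 distinct 75-base stretches (5.90%) with the antisense transcript AL161747.2, which never exceeded 3 expected counts. SALL1 is overlapped by the antisense gene AC009166.1, whose highest value was 64 expected counts.

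The files give SALL1 as ENSG00000103449 (GRCh38 chr16:51135975-51151367, minus strand), SALL2 as ENSG00000165821 (chr14:21521081-21537216, minus strand), SALL3 as ENSG00000256463 (chr18:78980275-79002677, plus strand) and SALL4 as ENSG00000101115 (chr20:51782331-51802520, minus strand). Their expected counts, which RSEM splits between genes where a read is ambiguous, were not whole numbers in 2.13% of libraries for SALL1, SALL2 and SALL3 and in 46.8% for SALL4. The SALL1 and SALL4 pseudogenes had at most 1.01 expected counts in any library.

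The libraries held 13029491 to 64082859 expected counts, with a median of 47292229. The summed TPM (transcript abundance corrected for length and scaled to the same total in every library) of POU5F1, NANOG, TDGF1 and DPPA4 was 2992 to 3361 at t0, and that of 5 NMP markers, TBXT among them, was 359 to 2256 at 36 h against 3.22 to 4.64 at t0. Among the P10 libraries, that of differentiation 1 stood apart from its label. The authors' own grouping of the libraries had also put it with P4 to P8 libraries. It was most like P7 of differentiation 2 (Pearson correlation of log2 CPM, counts scaled by library size, across 13297 genes, 0.980). The other P10 libraries were most like each other or P9. The 5 epithelial PNP markers summed to 427 TPM in P10 of differentiation 1 and to 5.24 and 7.35 TPM in the other P10 libraries. The fits of the members at P10 are therefore given with and without P10 of differentiation 1, and the gene list counts at P10 include it. P1 was uneven as well. Across its libraries the hESC markers summed to 99.5 to 1219 TPM and the epithelial PNP markers to 50.5 to 1072 TPM. At t0 the epithelial PNP markers already summed to 532.5 to 621 TPM, so their sum does not separate PNPs from undifferentiated cells. The authors' grouping by principal components placed P1 of differentiation 1 with the 36 h libraries. The part of these markers in the SALL levels at P1 was not tested.

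The make-up of the SALL transcripts turned over. At t0 SALL2 held 65.3% ± 0.216 (SD, n = 3) of the summed TPM of the 4 members, SALL4 22.4% ± 1.00, SALL1 8.51% ± 0.383 and SALL3 3.85% ± 0.827. At 36 h the SALL2 share was 28.99% ± 8.96 and that of SALL4 30.8% ± 1.45, next to 26.2% ± 10.0 for SALL1 and 14.1% ± 2.20 for SALL3. From P1 on SALL1 held the largest mean share in each group of whole cultures and fractions. At P5 the shares were 35.7% ± 4.17 for SALL1, 25.6% ± 1.57 for SALL4, 19.9% ± 2.55 for SALL2 and 18.7% ± 0.702 for SALL3. At P10 SALL1 held 52.7% ± 4.34 and SALL4 8.11% ± 8.55, with 17.6% in the library that stood apart and 0.995% and 5.74% in the others. The summed level of the 4 members was 447 ± 9.91 TPM at t0, 357 ± 35.2 at 36 h, 480 ± 52.1 at P1 and 537 ± 129 at P5, reached its highest mean among whole cultures at P7 (595 ± 219) and was 149 ± 20.5 at P9 (n = 2).

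**Figure D1:**
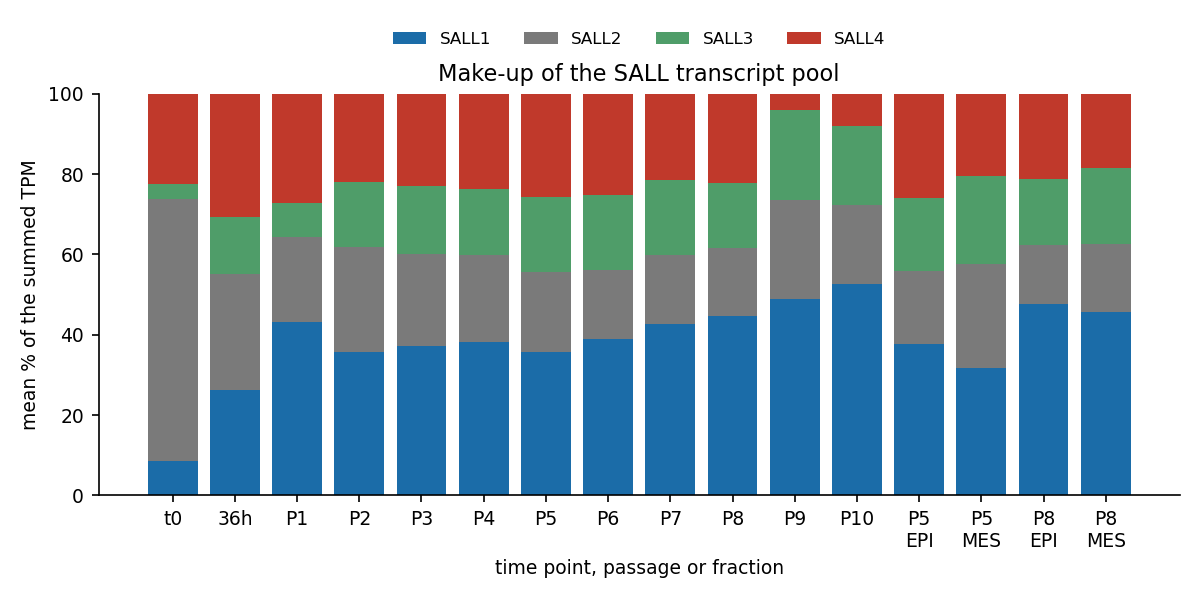
Mean share of each SALL gene in the summed TPM of SALL1 to SALL4 (vertical axis, %) for the 12 time points of whole cultures and the 4 fractions (horizontal axis; n = 3 libraries each, 2 at P9). SALL2 takes 65.3% at t0, SALL1 is the largest part from P1 on, and SALL4 shrinks to 4.05% at P9.

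The question for each time point was how each member differed from undifferentiated cells. A gene was called where edgeR's quasi-likelihood test, blocked by differentiation, gave a Benjamini-Hochberg adjusted p under 1%, the fold was 2 or more and the mean normalised count was 100 or more. Of the 11 time points after t0, SALL2 was called lower at 11, SALL1 higher at 9, SALL3 higher at 8 and SALL4 lower at 1. Over all 21750 genes tested, the share called was 2.71% at 36 h, 8.79% at P1, 12.8% at P2, 13.6% at P3, 14% at P4, 14.3% at P5, 14.6% at P6, 15.2% at P7, 15.4% at P8, 19.7% at P9 and 18.3% at P10. These 11 comparisons share the t0 libraries, so they are not separate evidence. With 1 differentiation left out, which leaves at most 2 libraries per group, some calls were lost: those of SALL2 at 36 h and from P1 to P3 without differentiation 2 and at 36 h and from P1 to P4 without differentiation 3, those of SALL1 at P1, P2, P4 and P5 and of SALL3 at P2, P4, P8 and P10 without differentiation 2, and those of SALL1 and SALL3 at P10 without differentiation 1.

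**Figure D2:**
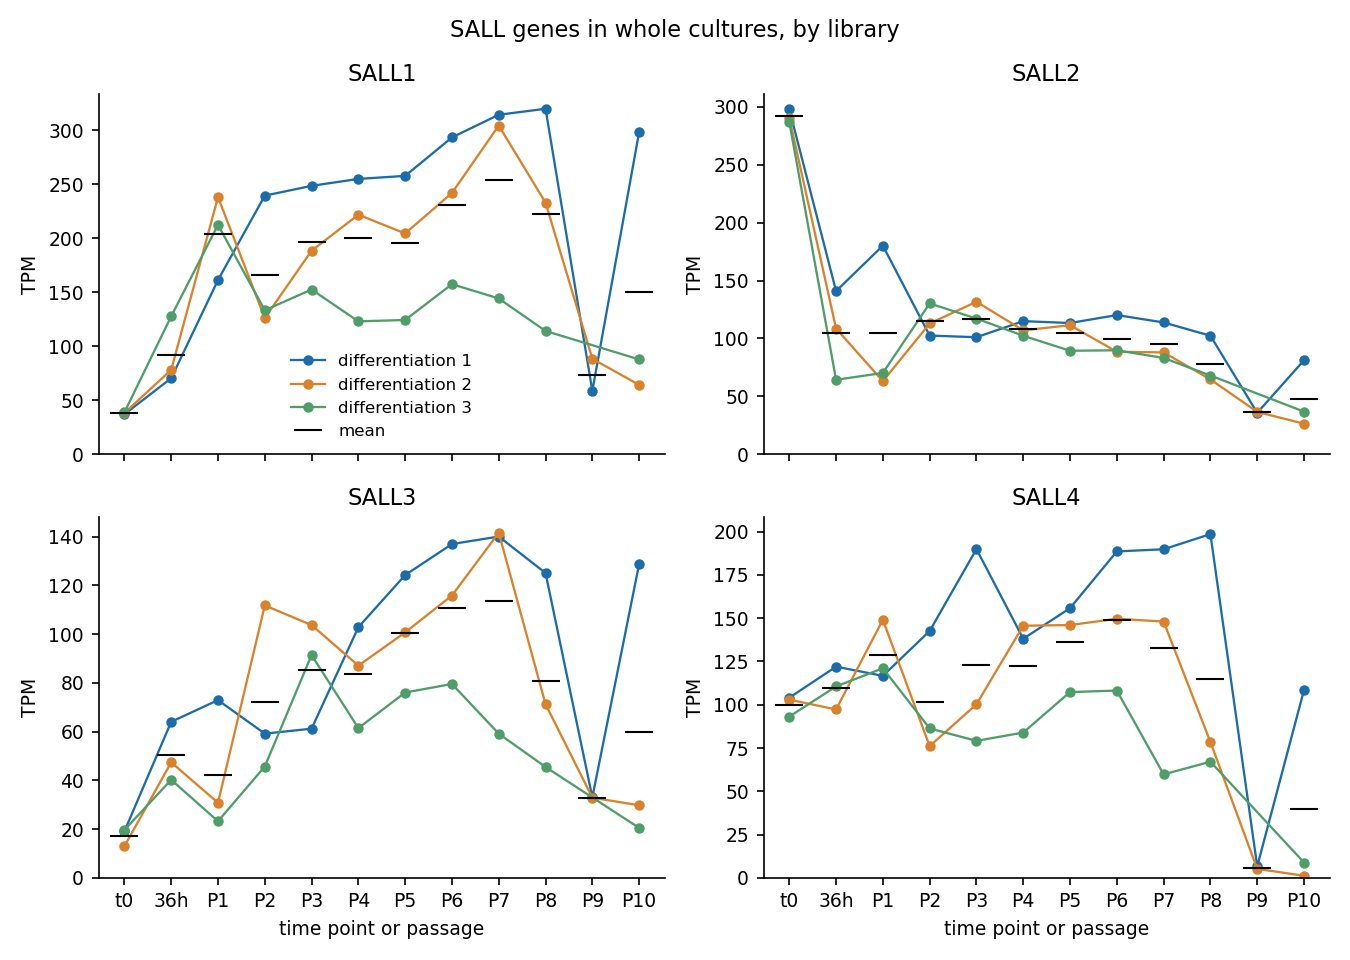
TPM of each SALL gene (vertical axes, linear from 0) in the 35 whole cultures by time point (horizontal axis); lines join the libraries of 1 differentiation, differentiation 3 has no P9 library, and black bars are means. SALL2 starts at 287 to 298 TPM and is lower in every later library, SALL1 and SALL3 start at their lowest levels, and SALL4 drops to 5.16 and 6.61 TPM at P9, with P10 of differentiation 1 back at 109 TPM.

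SALL2 fell at the first step and stayed low. Its t0 libraries had 298, 291 and 287 TPM, and those of 36 h had 141, 109 and 64.3 TPM. The log2 difference was -1.57 (SE 0.28, adjusted p = 5.9e-04). The call at 36 h was lost without differentiation 2 (-1.67, adjusted p = 0.039) and without differentiation 3 (-1.25, adjusted p = 0.12), each of which leaves pairs of libraries per group. At P1 the values were 180, 63.1 and 70.2 TPM, the first of which stood apart, and the difference from t0 was -1.60 (SE 0.28, adjusted p = 1.4e-04); without that library it was -2.08. A fit of the t0 and P1 libraries alone called neither SALL2 (-1.66, adjusted p = 0.054) nor SALL1 (2.43, adjusted p = 0.011).

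From P2 to P7 SALL2 was nearly flat, at 83.1 to 132 TPM in all 18 libraries. It was 113, 111 and 89.3 TPM at P5, where the log2 difference from t0 was -1.63 (SE 0.28, adjusted p = 4.7e-05), and 102, 64.6 and 68.0 TPM at P8 (-2.10, SE 0.28, adjusted p = 2.3e-06). Its lowest levels came last. P9 had 35.8 and 36.6 TPM (-3.19, SE 0.35, adjusted p = 1.2e-07), and P10 had 81.2, 26.4 and 36.8 TPM (-2.74, SE 0.29, adjusted p = 5.4e-08), or -3.08 without the library that stood apart. In an edgeR fit of the t0 and P10 libraries alone SALL2 was not called (-2.77, adjusted p = 0.0105).

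SALL1 rose from its lowest level at t0. Its t0 libraries were within 37.0 to 38.8 TPM. At 36 h it had 70.4, 78.1 and 128 TPM, all above t0, but the log2 difference of 1.34 (SE 0.40, adjusted p = 0.029) did not pass the call threshold. At P1 the values were 161, 238 and 212 TPM, a difference from t0 of 2.44 (SE 0.42, adjusted p = 1.0e-04).

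At P5 SALL1 had 258, 204 and 124 TPM (log2 difference from t0 2.13, SE 0.41, adjusted p = 1.8e-04, or 2.10 and 0.012 without differentiation 2), and at P8 320, 233 and 114 TPM (2.30, SE 0.42, adjusted p = 7.8e-05). Its highest mean was at P7, with 314, 304 and 144 TPM. The differentiations kept an order: of the 7 time points from P3 on that have 3 libraries, differentiation 1 was the highest at 7 and differentiation 3 the lowest at 6. P9 stood between t0 and the earlier passages, at 58.7 and 88.4 TPM, and was not called against t0 (0.76, SE 0.44, adjusted p = 0.15). P10 was called (1.73, SE 0.41, adjusted p = 0.0010) with 298, 64.2 and 87.8 TPM. Without the first of these the difference was 1.11 with an adjusted p of 0.020 and was not called.

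SALL3 was the scarcest member at t0, with 19.1, 12.97 and 19.7 TPM. It had 64.02, 47.4 and 40.2 TPM at 36 h, all above t0, with a log2 difference of 1.496 (SE 0.41, adjusted p = 0.017) that was not called. P1 was split, with 72.9 TPM in differentiation 1 and 30.8 and 23.2 TPM in the others (1.22, SE 0.41, adjusted p = 0.023), and the difference was 0.86 (adjusted p = 0.13) without the first. SALL3 at P1 was called in DESeq2 (1.22, adjusted p = 0.0078), with all 47 libraries in 1 fit (1.23, adjusted p = 0.0081), without P10 of differentiation 1 (1.26, adjusted p = 0.0048) and at an adjusted p under 5%.

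SALL3 was called higher than t0 at every passage from P2 to P8, although at P2 not in a fit of the t0 and P2 libraries alone (2.18, adjusted p = 0.019). It had 124, 101 and 76.0 TPM at P5 (log2 difference 2.56, SE 0.42, adjusted p = 3.2e-05), 140.0, 142 and 59.2 TPM at P7 (2.68, SE 0.43, adjusted p = 1.8e-05) and 125, 71.2 and 45.5 TPM at P8 (2.17, SE 0.42, adjusted p = 1.6e-04). At P9 it had 33.0 and 32.9 TPM, below every whole culture of P4 to P8 and above each t0 library, and was not called against t0 (0.80, SE 0.45, adjusted p = 0.14). At P10 it had 129, 29.8 and 20.5 TPM and was called (1.64, SE 0.41, adjusted p = 0.0019), and without the first of these it was not (0.83, adjusted p = 0.057).

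SALL4 had no called difference from t0 before P9, where it dropped. Its t0 libraries had 104, 103 and 93.1 TPM, those of 36 h 122, 97.3 and 111 TPM and those of P1 117, 149 and 121 TPM. None of the comparisons from 36 h to P8 was called, with log2 differences from t0 between -0.21 at P8 and 0.40 at P1 and standard errors of 0.67. In the fit, such an error leaves room for changes of more than 2-fold either way. The error draws on the spread over all 35 whole cultures, not on that of each time point. Within differentiations the log2 ratio to t0 was -0.10 to 0.13 at 36 h, -0.07 to 0.41 at P5 and -0.81 to 0.72 at P8. The spread had a pattern: at P3 SALL4 had 189.9, 100.3 and 79.1 TPM, and at P8 199, 78.5 and 67.1 TPM, and differentiation 1 was the highest at 6 of the 7 time points from P3 on that have 3 libraries.

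At P9 SALL4 had 6.61 and 5.16 TPM, from 487 and 502 expected counts, below the lowest whole culture of any earlier time point (59.8 TPM, at P7 of differentiation 3). The log2 difference from t0 was -4.56 (SE 0.94, adjusted p = 2.9e-04). At P10 it had 109, 1.21 and 8.84 TPM. The second of these rests on 81.0 expected counts. The difference of P10 from t0 was -2.08 (SE 0.72, adjusted p = 0.018) and was not called. Without the library that stood apart it was -4.34 (adjusted p = 4.7e-06) and was called, where 18.6% of all genes tested were. SALL4 thus had a level near that of t0 in P10 of differentiation 1, although P9 of the same differentiation was at 6.61 TPM.

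**Figure D3:**
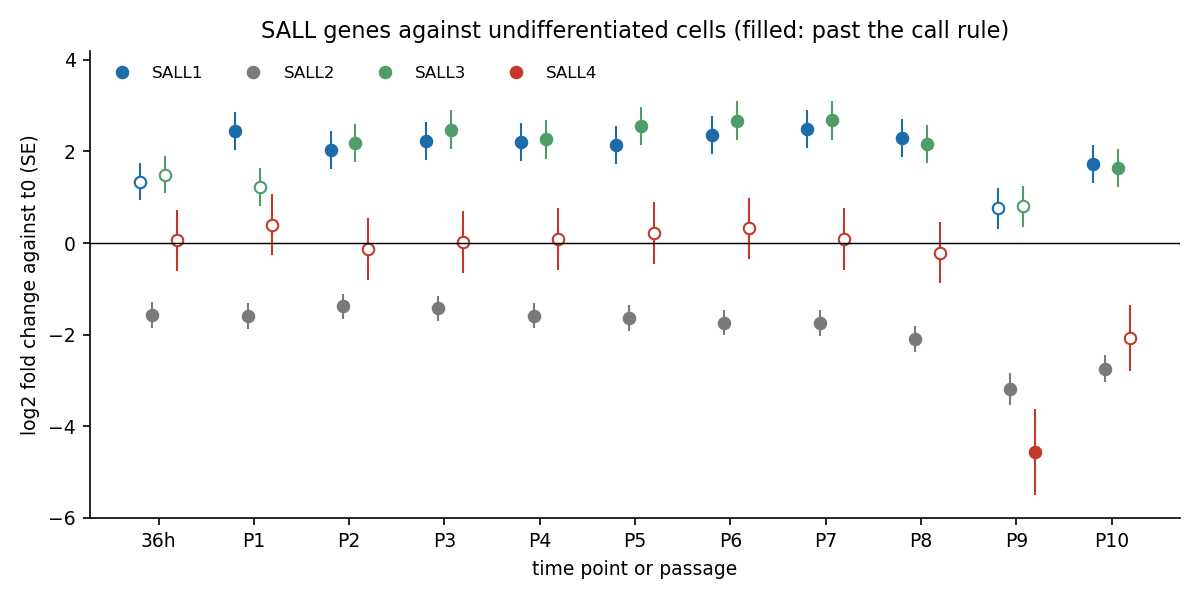
Log2 fold change of each SALL gene against t0 (vertical axis; bars are the standard error of the edgeR fit over 35 whole cultures) at each later time point (horizontal axis); filled points pass the call rule. SALL2 is filled and below 0 at all 11 time points, SALL1 and SALL3 are above 0 at all 11, and SALL4 lies near 0 until P8 and is filled only at P9, at -4.56.

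The last step was then tested against P8 in place of t0, in the same fit of whole cultures. P9 against P8 was added after the values had been seen, so its tests describe a difference that was chosen for its size. SALL4 was lower at P9 by -4.35 (SE 0.92, adjusted p = 0.0065) and was the single member called, where 1.22% of all genes were. The call was lost without the block (-4.30, adjusted p = 0.032), with the P9 and P8 libraries alone (-4.47, adjusted p = 0.063) and without any 1 of the differentiations (-4.75 to -3.81, adjusted p = 0.021 to 0.059). Where a differentiation that holds P9 is left out, the lone P9 library is taken to vary like the other groups. The other members were lower in both differentiations that have P9, with log2 differences of -1.54 for SALL1 (adjusted p = 0.038), -1.09 for SALL2 (adjusted p = 0.031) and -1.37 for SALL3 (adjusted p = 0.063), none of them called. P10 against P8 gave no called member, with 0.0874% of all genes called (19 genes in edgeR, 3571 at an unadjusted p under 0.05, 307 in DESeq2). SALL4 differed by -1.87 (SE 0.70, adjusted p = 0.17). Without P10 of differentiation 1 the difference was -4.21 (adjusted p = 6.8e-05) and SALL4 was the 1 member called, next to 3.87% of all genes, while SALL1, SALL2 and SALL3 stood at -1.22, -0.997 and -1.37 (adjusted p = 0.050, 0.023 and 0.018).

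Markers moved with this drop. The 8 neural crest and mesenchymal markers, SOX10 and SNAI2 among them, summed to 1071 and 1110 TPM at P9 and to 900 and 1005 TPM in P10 of differentiations 2 and 3, against 113 to 696 TPM at P8 and 192 TPM in P10 of differentiation 1. The 5 epithelial PNP markers summed to 16.5 and 16.7 TPM at P9 against 162 to 695 TPM at P8. All markers of both lists were above 3 counts in at least 1 library of P9. Their part in the levels of SALL4 was not tested.

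No member was called in P1 against 36 h or in P8 against P5. SALL1 was higher at P1 than at 36 h in 3 of 3 differentiations by 1.0996 (SE 0.40, adjusted p = 0.088), with 1.19% of all genes called. The P1 difference of the other members from 36 h was -0.03 for SALL2, -0.27 for SALL3 and 0.34 for SALL4. P8 against P5 had log2 differences of 0.17 for SALL1, -0.46 for SALL2, -0.39 for SALL3 and -0.43 for SALL4 (adjusted p = 0.48 to 0.92) and 0.0092% of all genes called, that is 2 genes in edgeR, 2892 at an unadjusted p under 0.05 and 155 in DESeq2.

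The fractions asked whether the members differ between epithelial and mesenchymal cells of the same dishes. All 4 were lower in MES than in EPI in each differentiation at P5 and at P8, as judged by normalised counts (12 of 12 pairs at each passage). Of 13297 genes with a mean of at least 100 normalised counts, 32.5% were lower in MES in all 3 differentiations at P5 and 27.3% at P8.

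SALL1 had 295, 248 and 191 TPM in EPI and 152, 128 and 58.3 TPM in MES at P5, groups that did not overlap. The log2 difference was -1.18 (SE 0.19, adjusted p = 0.017). SALL4 had 175, 170.2 and 153 TPM in EPI and 79.6, 83.4 and 47.1 TPM in MES at P5, again with no overlap (-1.34, SE 0.41, adjusted p = 0.083). For SALL3 the EPI values were 125, 118 and 108 TPM and the MES values 96.9, 73.7 and 52.4 TPM (-0.69, SE 0.17, adjusted p = 0.045). For SALL2 they were 115, 122 and 115 TPM against 103, 84.8 and 70.4 TPM (-0.46, SE 0.14, adjusted p = 0.084). The EPI and MES libraries of SALL2 and SALL3 did not overlap at P5 either. The share of all genes without overlap was not computed, so this cannot be read as particular to the members.

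None of the 4 members was called in edgeR with the count filter, in a fit in which 0% of the 18885 genes were called at P5 (4894 genes had an unadjusted p under 0.05). The paper, at like thresholds with DESeq2, reports genes higher in each fraction at P5, so the 0% holds for this edgeR fit only. With no count filter edgeR called SALL1 (-1.20, adjusted p = 0.0088). DESeq2 with the differentiation as covariate called 3.57% of genes at P5 (674), and with them SALL1 (-1.20, adjusted p = 5.8e-07) and SALL4 (-1.36, adjusted p = 0.0064).

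At P8 the EPI and MES levels of each member overlapped. SALL1 had 311, 256 and 165 TPM in EPI and 228, 222 and 83.5 TPM in MES (-0.58, SE 0.19, adjusted p = 0.32). SALL4 had 194, 83.4 and 68.8 TPM in EPI and 148, 70.9 and 23.1 TPM in MES (-0.73, SE 0.41, adjusted p = 0.51). The spread here was mostly between differentiations, with differentiation 1 the highest and differentiation 3 the lowest in both fractions. SALL2 had 98.0, 67.5 and 57.4 TPM in EPI and 83.2, 60.0 and 42.0 TPM in MES (-0.31, SE 0.14, adjusted p = 0.44). SALL3 had 124, 74.7 and 60.4 TPM in EPI and 99.1, 76.3 and 40.2 TPM in MES (-0.31, SE 0.17, adjusted p = 0.51). In differentiation 2 SALL3 was not lower in MES by TPM, so that 11 of the 12 pairs at P8 were lower on that scale. In edgeR 0% of the genes were called at P8 (2261 at an unadjusted p under 0.05, and 55 called in DESeq2).

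**Figure D4:**
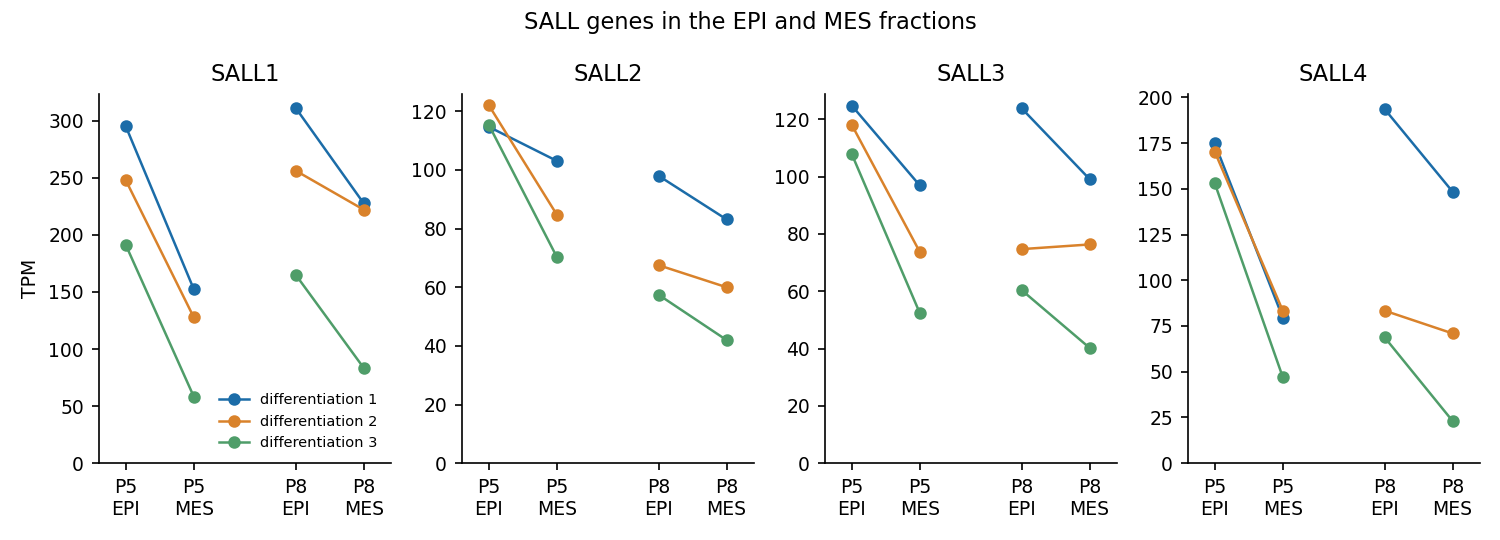
TPM of each SALL gene (vertical axes, linear from 0) in the EPI and MES fractions of P5 and P8 (horizontal axis); each line joins the fractions of 1 differentiation. Every line slopes down from EPI to MES except that of SALL3 in differentiation 2 at P8 (74.7 to 76.3 TPM).

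The change of the fraction difference between the passages was tested as an interaction. It was 0.61 for SALL1 (SE 0.27), 0.15 for SALL2 (SE 0.20), 0.39 for SALL3 (SE 0.24) and 0.62 for SALL4 (SE 0.57), all with adjusted p of 0.82 to 0.93, and 0% of the genes were called (1152 at an unadjusted p under 0.05, and 1 in DESeq2). Within EPI, P8 differed from P5 by 0.02 for SALL1, -0.68 for SALL2 (SE 0.14, adjusted p = 0.031), -0.46 for SALL3 and -0.73 for SALL4, with 0.259% of genes called. Within MES the differences were 0.63 for SALL1 (SE 0.19, adjusted p = 0.065), -0.52 for SALL2 (SE 0.14, adjusted p = 0.050), -0.07 for SALL3 and -0.12 for SALL4, with 0.699% of genes called. No member was called in either. SALL2 was lower at P8 than at P5 in 3 of 3 differentiations in each fraction.

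The fraction labels were reflected in the markers, in part. At P5 the neural crest and mesenchymal markers summed to 445 to 648 TPM in MES and 73.9 to 286 TPM in EPI, and the epithelial PNP markers to 87.4 to 255 TPM in MES and 464 to 721 TPM in EPI. At P8 both sums overlapped between the fractions (256 to 1039 TPM in MES against 89.8 to 720 TPM in EPI for the first, and 51.8 to 446 against 185 to 645 TPM for the second). Their part in the SALL differences was not tested.

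Ordered by mean TPM over the 16 groups, SALL1 ran from P7 (254 ± 95.4) to t0 (38.0 ± 0.884), SALL2 from t0 (292 ± 5.501) to P9 (36.2 ± 0.573), SALL3 from the EPI fraction of P5 (117 ± 8.53) to t0 (17.2 ± 3.70) and SALL4 from the EPI fraction of P5 (166 ± 11.5) to P9 (5.89 ± 1.03, n = 2). Nearly all neighbours in these orders overlapped. The libraries were apart between neighbours at 1 of 15 steps for SALL1 (P9 above t0), 1 of 15 for SALL2 (t0 above the EPI fraction of P5), 1 of 15 for SALL3 (P9 above t0) and 0 of 15 for SALL4. The same count over all genes was not made.

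RSEM also gives each gene a mean transcript length, weighted by the estimated abundance of its transcripts, and this value of SALL3 moved. The annotation has 6 SALL3 transcripts, the longest of 6555 bases and the next of 3997. The mean length was 4289 to 4348 bases at t0, 4417 to 4569.6 at 36 h and 4564 to 4676 at P1. In the 26 libraries from P2 on it was 4751 to 5298 bases, and in the fractions 4862 to 5299. At P9, where SALL3 itself was at 33.0 and 32.9 TPM, it was 4943 and 5137 bases. At P5 its mean was 1.18 times that of t0. Of 12178 genes with more than 1 transcript and a mean of at least 100 normalised counts, 24.5% had P5 lengths that did not overlap those of t0, and 4.98% had a ratio at least as high as that of SALL3. SALL1, SALL2 and SALL4 overlapped between t0 and P5, with ratios of 0.99, 1.00 and 0.97. The lowest value of SALL4, 3225 bases, was that of the P10 library with 81.0 expected counts. The split between transcripts is estimated by RSEM from single-end reads of 75 bases, and the abundance of each transcript was not analysed here.

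**Figure D5:**
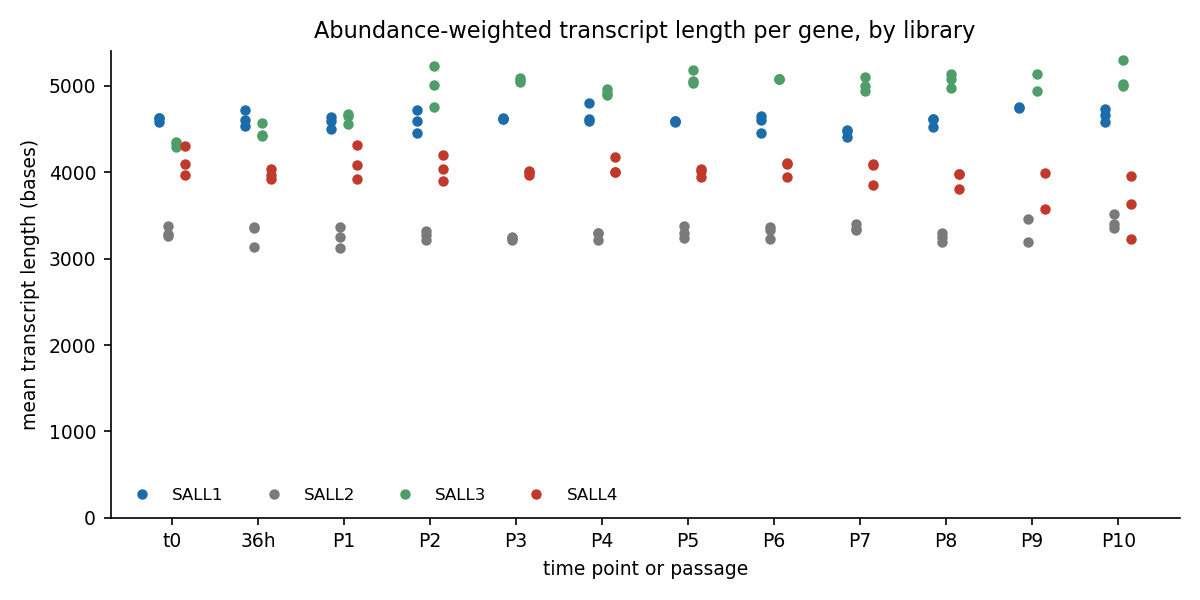
Mean transcript length of each SALL gene in bases, weighted by abundance (vertical axis, linear from 0), in each of the 35 whole cultures by time point (horizontal axis). SALL3 steps up from 4289 to 4348 bases at t0 to 4751 bases or more from P2 on, and SALL1 and SALL2 stay within 4412 to 4806 and 3128 to 3517 bases.

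The patterns of the members over the libraries were compared as Pearson correlations of log2 CPM, which are descriptions: the 47 libraries share differentiations and stages. SALL1 and SALL3 were the most alike (0.75), SALL2 and SALL4 came next (0.66), and SALL2 had no such likeness to SALL1 (-0.13) or SALL3 (-0.02). SALL4 had 0.52 with SALL1 and 0.43 with SALL3.

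Among 13259 genes searched, the closest to SALL3 was its neighbour. LINC01896, a long intergenic noncoding RNA on the opposite strand (chr18:78976555-78979074), has its 5′ start 1200 bases from that of SALL3, head to head and with no annotated gene between them, and its correlation was 0.95. It had 19.9 ± 5.94 TPM at t0, 44.5 ± 5.99 at 36 h, 153 ± 61.3 at P5 and 33.6 ± 3.07 at P9 (n = 2). The others closest to SALL3 were CRB2, a Crumbs polarity protein (0.86), WDTC1 (0.86), URAD (0.85) and LINC02418 (0.84).

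SALL1 was closest to DMTN, which encodes the actin-bundling protein dematin (0.91), DSP, the desmosomal plaque protein desmoplakin (0.90), CDH2, which encodes N-cadherin (0.90), LINC01571 (0.88) and URAD (0.86). LINC01571 lies on the same chromosome, 611151 bases away, with 6 annotated genes between them. CDH2 had 36.2 ± 5.08 TPM at t0, 230 ± 93.7 at 36 h, 245 ± 68.2 at P5 and 106 ± 4.16 at P9.

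SALL2 was closest to CFAP298 (0.91), FAM155B (0.90), the SoxD factor SOX13 (0.90), the DNA repair enzyme TDP1 (0.90) and CRYBG2 (0.90). SALL4 was closest to the kinase scaffold KSR1 (0.93), LIN28A, which blocks let-7 maturation and marks pluripotent and early embryonic cells (0.93), LSR, a protein of tricellular junctions (0.91), GALNT16 (0.91) and KIAA1671 (0.91). LIN28A had 1065 ± 102 TPM at t0, 690 ± 148 at P5 and 0.870 ± 0.240 at P9. By Spearman correlation 0 of these 5 stayed among the 5 closest to SALL4, and 2 of 5 did for each of the other members.

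The other genes of the networks in which SALL proteins act were taken as lists. Of 12 genes of the pluripotency network, all tested in whole cultures, 1 was called lower at 36 h, 6 at P1, 7 at P5, 9 at P8, 11 at P9 and 10 at P10, and 0 were called higher at any of these. Over all genes tested, 2.71%, 8.79%, 14.3%, 15.4%, 19.7% and 18.3% were called in either direction at these times. The median log2 difference of the list was -1.21 at 36 h and -4.12 at P5, against 0.00 and 0.01 over all genes. At P5 the largest were POU5F1, the gene of OCT4, with 0.703 ± 0.171 TPM after 1636 ± 98.8 at t0, PRDM14 with 0.0333 ± 0.0306 after 39.2 ± 5.02, NANOG with 0.190 ± 0.0300 after 99.2 ± 5.30 and TDGF1, a NODAL co-receptor, with 2.72 ± 2.64 after 650 ± 49.8. SALL4 at P5 had 156, 146 and 107 TPM in the same libraries. SOX2, a member of the same list, had 183 ± 9.81 TPM at t0, 28.8 ± 44.9 at P1 (-3.79, SE 1.34, adjusted p = 0.032, not called), 30.6 ± 9.06 at P2, 173 ± 40.1 at P5 and 5.43 ± 0.778 at P9, where it was called lower (-5.56, SE 1.71, adjusted p = 0.0088).

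Of 14 NuRD genes, 1 was called lower than t0 at 36 h and at P1, 1 higher and 1 lower at P5, 2 higher and 2 lower at P9, and 2 higher and 1 lower at P10. The shares called over all genes were 2.71% at 36 h, 8.79% at P1, 14.3% at P5, 19.7% at P9 and 18.3% at P10, so that at P1, P5 and P10 the counts of the list are near those of all genes. MTA3 was the one called lower at each of these times. It had 194 ± 7.12 TPM at t0, 95.8 ± 29.7 at 36 h (log2 difference -1.07, SE 0.13, adjusted p = 4.9e-06) and 55.4 ± 8.42 at P5 (-1.86, SE 0.13, adjusted p = 2.9e-10). The remodelling ATPase CHD3 rose from 26.8 ± 4.48 TPM at t0 to 96.7 ± 5.29 at P5 (1.86, SE 0.18, adjusted p = 1.8e-08), and at P10 both CHD3 (2.74, SE 0.18, adjusted p = 5.4e-11) and the methyl-CpG binding gene MBD2 (1.59, SE 0.17, adjusted p = 3.8e-08) were called higher. The histone binding gene RBBP7 was called lower at P9 alone of the times named here (-1.08, SE 0.16, adjusted p = 6.3e-06). The median of the list was 0.26 at P5 and 0.30 at P10, against 0.01 over all genes at both.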

How the data were processed

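RNA from WA09 cultures was sequenced as single-end reads of 75 bases on a HiSeq 4000. According to the submitters' processing notes, cutadapt 1.16, STAR 2.5.2b and RSEM 1.3.0 were used with GRCh38. The authors deposited RSEM expected counts and TPM values per gene and library, with each gene's mean and effective transcript length. Of 58051 Ensembl identifiers, 57447 had a symbol in GENCODE release 29, the annotation used here.

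Expected counts, of which 9.33% were not whole, were rounded and tested with edgeR 4.0.16 (limma 3.58.1, R 4.3.3): TMM factors, filterByExpr, quasi-likelihood test, Benjamini-Hochberg adjustment over all genes tested. The 35 whole cultures made 1 fit and the 12 fractions another, with the differentiation number as a block, since the series' design text describes 3 experiments that each ran through the time points, with P9 in 2 of them. Deviations from group means over 13297 genes correlated within a number, with a mean of 0.14 in whole cultures and 0.42 in fractions. The means between numbers (-0.07 and -0.21) follow largely from centring on the group means and are not separate evidence. DESeq2 1.42.0 was an alternative. Replicate libraries differed by more than counting error in all 46 pairs (lowest chi-square per degree of freedom 25.4). TPM is compared between genes and described without a test. The fitting script was tested on simulated counts.

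The 4 members are named in every comparison. For each member the 5 genes with the highest Pearson correlation of log2 CPM (prior count 2) over the 47 libraries are named. Of each list, up to 4 called genes are named for some of the comparisons only, by size of change. The members and lists were chosen with earlier results of these data known. SOX2 and P9 against P8 were chosen after the values were seen. The alternatives were DESeq2's size factors, other count filters and thresholds, fits without the block, of the compared or of all 47 libraries, and leaving out libraries or a differentiation. One called gene of a list and some sequences are not reported here.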

Additional observations from a re-analysis of the deposited data

How the results depend on the processing

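Over all alternatives, 1138 values of the members kept their direction and their side of the threshold, 33 fell out of it, 26 came into it and 19 changed sign, none of the last in a called comparison. The alternatives that only loosened a threshold used the main fit again. In those no direction could change and no call could be lost, which adds to the values that were kept. Where a call or sign changed, the cause was not tested. At 36 h, SALL1 (1.34 at an adjusted p under 5%, 1.32 in DESeq2) and SALL3 (1.496 at 5%, 1.48 in DESeq2, 1.495 with all 47 libraries in 1 fit, 1.504 without P10 replicate 1) came to be called, and SALL2 was lost with only the compared libraries (-1.57). Against t0 at P10, the compared libraries alone gave 1.59 for SALL1, -2.77 for SALL2 and 1.52 for SALL3, none of them called, and dropping P10 replicate 1 gave 1.11, -3.08 and 0.83, of which SALL2 was called. SALL4 at P10 was called at 5% (-2.08), in DESeq2 (-2.10), with all 47 libraries (-2.08) and without P10 replicate 1 (-4.34, and -4.21 against P8). For P9 against P8, SALL1 was called at 5% (-1.54) and in DESeq2 (-1.54), and SALL2 at 5% (-1.09), in DESeq2 (-1.097) and with all 47 libraries (-1.12). SALL4 was lost with the compared libraries alone (-4.47). MES against EPI at P5 was called for SALL1 at 5% (-1.18), with no count filter (-1.202) and in DESeq2 (-1.195), and for SALL4 in DESeq2 (-1.36).

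Without the replicate block, P9 against P8 gave -4.30 for SALL4, no longer called, and the sign turned for SALL2 in P1 against 36 h (0.025) and for SALL4 in P8 MES against P5 MES (0.15). No other call of a member changed without the block.

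Leaving out 1 replicate number at a time, the differences from t0 ranged from -1.76 to -1.25 for SALL2, 1.34 to 1.84 for SALL3 and -0.0072 to 0.16 for SALL4 at 36 h, 1.89 to 2.45 for SALL1 at P5, and 0.97 to 2.09 for SALL1, 0.73 to 2.34 for SALL3 and -4.49 to -1.38 for SALL4 at P10. SALL4 ranged from -3.85 to -1.36 in P10 against P8 and from -4.75 to -3.81 in P9 against P8. The SALL4 differences from t0 that crossed 0 ranged from -0.41 to 0.10 at P2, -0.30 to 0.33 at P3, -0.0498 to 0.35 at P4, -0.14 to 0.51 at P7 and -0.64 to 0.14 at P8. At P3 SALL4 was also at -0.00065 with DESeq2 size factors, -0.030 with at least 10 counts in every library and -0.00090 in DESeq2. Other ranges that crossed 0 were -0.42 to 0.38 for SALL2 in P1 against 36 h (-0.52 without P1 replicate 1), -0.022 to 0.099 for SALL1 in P8 EPI against P5 EPI, and -0.19 to 0.085 for SALL3 and -0.67 to 0.27 for SALL4 in P8 MES against P5 MES.

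The number of genes called also depended on the settings. It ran from 83 (without replicate 2) to 990 (no minimum fold) around 589 at 36 h, from 31 (compared libraries alone) to 3473 around 1912 at P1, from 1317 to 4892 around 2792 at P2, from 1708 to 5240 around 2965 at P3, from 1783 to 5388 around 3045 at P4, from 1947 to 5532 around 3107 at P5, from 1970 to 5659 around 3173 at P6, from 2124 to 5864 around 3298 at P7, from 2102 to 5976 around 3353 at P8, from 2016 to 6592 around 4295 at P9 and from 1242 to 6743 around 3978 at P10. It ran from 0 to 955 around 259 in P1 against 36 h, from 0 to 155 around 2 in P8 against P5, from 0 to 917 around 19 in P10 against P8, from 0 to 904 around 265 in P9 against P8, from 0 to 606 around 49 in P8 EPI against P5 EPI and from 0 to 751 around 132 in P8 MES against P5 MES. MES against EPI, with 0 called, reached 674 at P5 and 55 at P8 in DESeq2. The standard errors of 0.67 mean that SALL4 differences from t0 of 2-fold would not have been called.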

Other observations

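Of 5 genes of the cereblon ubiquitin ligase, which degrades SALL4 when thalidomide is present, 0 were called at P9 against t0 in edgeR, where 19.7% of all genes were, and 3 had an unadjusted p under 0.05. CUL4A, the scaffold, had the largest difference there (-0.51, SE 0.12, adjusted p = 0.0013), under the 2-fold limit. CRBN itself, the substrate receptor, had 29.8 ± 1.47 TPM at t0, 32.5 ± 1.43 at P5 and 33.8 ± 8.99 at P9 (n = 2), and its adaptor DDB1 had 228 ± 9.33, 252 ± 2.89 and 206 ± 37.1 TPM.

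Of 16 kidney and limb regulators that act in tissues where SALL1 and SALL4 are known to be needed, 15 were tested in whole cultures. Against t0, 4 were called higher and 0 lower at P1, 5 higher and 1 lower at P5, and 2 higher and 1 lower at P10, where 8.79%, 14.3% and 18.3% of all genes were called; the count at P10 is near that share. Among those at P1 were FGF10, the limb bud growth factor, with 45.6 ± 39.1 TPM after 0.0933 ± 0.0551 at t0, OSR1, an intermediate mesoderm factor, with 10.9 ± 9.66 after 0.0433 ± 0.0493, and EYA4 with 2.00 ± 1.15 after 0.107 ± 0.0153. FGF10 ranged from 0.480 to 70.6 TPM within P1. The largest differences at P5 were those of PAX2, a kidney and hindbrain factor, with 5.17 ± 2.68 TPM after 0.113 ± 0.0379, FGF10 with 6.22 ± 4.85, EYA4 with 2.41 ± 0.871 and GDNF, a ligand of RET, with 4.23 TPM (2.49 to 5.13) after 0.140 ± 0.0600. At P10 the hedgehog effector GLI3 was called higher (log2 difference 2.54, SE 0.35, edgeR adjusted p = 1.9e-06) and RET lower (-4.60, SE 1.00, adjusted p = 4.7e-04), at 96.1 ± 38.2 and 0.300 ± 0.0400 TPM after 16.9 ± 0.555 and 5.91 ± 1.17 at t0.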
